A study of Mus musculus with 40 samples.

Results

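Expression of 7 B-cell and lymphoid cytokine genes, chosen by name, was followed in 39 primary mammary tumors of 2 mouse models. The genes were Cd79a, Cd79b, Ms4a1, Jchain, Mzb1, Cxcl13 and Ltb, and all 7 were among the 14318 genes measured. The table of expression values gave a symbol for 6 of them. The symbol of Ms4a1 was missing, as it was for 59 genes in all, and the gene was identified by its Entrez identifier, 12482, in RefSeq.

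Bulk RNA sequencing was performed on tumors of 4T1-luc or 66cl4-luc cells, which are luciferase-expressing mouse mammary carcinoma lines used as models of triple-negative breast cancer. The cells were inoculated through the milk ducts of lactating wild-type (WT) female BALB/c mice, which had been mated at 8 w of age. From 3 w post-inoculation (p.i.), mice were left untreated or received intraperitoneal anti-PD-1, a checkpoint-blocking antibody (200 µg per injection, weekly), chitin, a blocker of chitinase-like proteins (1 mg per injection, every 3 d), or chitin + anti-PD-1. Primary tumors were collected at 5 w p.i., giving 8 groups by model and treatment with 5 tumors each, of which 4T1 untreated tumor 3 was not analysed here and that group held 4 tumors. The tumor tissue contained cancer cells, infiltrating host cells and surrounding gland. Each model was built from 1 cell line, so that properties of the line and of the host response to it cannot be told apart.

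B cells carry an antigen receptor whose signal passes through the paired chains Cd79a and Cd79b, and they display the surface protein Ms4a1, also called CD20, which is lost on differentiation to plasma cells. Plasma cells and their precursors secrete antibody with the help of Mzb1, a chaperone of the endoplasmic reticulum, and Jchain, which joins IgM and IgA into polymers. Cxcl13 is the chemokine that attracts B cells to follicles through its receptor Cxcr5, and Ltb encodes lymphotoxin beta, a membrane cytokine of lymphocytes that takes part in building lymphoid tissue.

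Promoter stretches are shown for Ltb and Cxcl13, the 2 members that encode signals to other cells, because their levels varied together across the tumors of both models. Each stretch is the 120 bases before the RefSeq start on the plus strand of GRCm38.p6, at chr17:35194387-35194506 for Ltb and at chr5:95956819-95956938 for Cxcl13. Capitals in the Ltb stretch mark a match to the consensus kappaB motif, searched on both strands, which lay 87 to 78 bases before the start. Capitals in the Cxcl13 stretch mark the letters TATAAA, 46 bases before the start.
Ltb: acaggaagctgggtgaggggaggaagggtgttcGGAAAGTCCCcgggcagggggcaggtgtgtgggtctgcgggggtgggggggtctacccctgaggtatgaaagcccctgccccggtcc
Cxcl13: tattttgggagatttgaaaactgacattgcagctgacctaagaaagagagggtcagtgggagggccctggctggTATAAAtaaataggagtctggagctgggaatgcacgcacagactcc

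Of 32851 RefSeq promoters, 0.356% held the kappaB motif and 12.4% held TATAAA in the 250 bases before the start. Promoter entries were at hand for Cd79a, Jchain, Cxcl13 and Ltb. Their windows held neither the B-cell octamer ATGCAAAT, present in 1.6% of promoters, nor the palindromic motif of EBF factors, present in 0.779%. These matches describe the letters of the sequence and were not tested for binding.

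In the RefSeq annotation of GRCm38.p6, Cd79a (Entrez 12518) lies on the plus strand at chr7:24897497-24901858 and Cd79b (15985) on the minus strand at chr11:106311341-106314562. Ms4a1 lies on the minus strand at chr19:11249679-11266149 and overlaps the antisense gene 4930526L06Rik, but reads were counted by strand. Jchain (16069) lies at chr5:88519809-88527897 on the minus strand, Cxcl13 (55985) at chr5:95956939-95961068 on the plus strand and Ltb (16994) at chr17:35194507-35196305 on the plus strand. Mzb1 (69816), at chr18:35647265-35650266 on the minus strand, overlaps Spata24 on the same strand, and its counts are uncertain for that reason.

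The files hold variance-stabilized values on a log2-like scale, on which 0 reads corresponds to 6.05 in every tumor. Inverting the transformation returned whole reads for 100% of values, and levels below are these reads divided by the size factors, called normalised counts. Depth ran from 5105898 to 14800352 reads per tumor, with a median of 6590274. A count of 0 reads allows up to 3 reads at such depth, and this limit covers counting error only. Differences were tested on the deposited scale with limma across all 14318 genes, with Benjamini-Hochberg adjustment and a threshold of 0.05. On this scale a difference understates the fold change of genes with few reads. In bulk tissue, fewer cells of a type and less RNA per cell cannot be told apart. One library stood apart in the results below, namely 4T1 anti-PD-1 tumor 2. It was the lowest of its group for 7 of 7 genes, as for 4727 of all 14318 genes, at a depth of 6164483 reads. Values are given with and without it. Because it stood out by low values of the members themselves, leaving it out favours larger differences for them. Calls made without it are descriptions.

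All 7 genes passed the authors' filter of more than 10 reads in at least 10% of tumors, which is 4 tumors. Mzb1 passed it through 4T1 tumors, since no 66cl4 tumor held more than 9 of its reads, and Ms4a1 exceeded 10 reads in 5 4T1 and 3 66cl4 tumors, so that the 66cl4 tumors alone would not have sufficed. Per kilobase of exon, the medians in 4T1 tumors ran from 72.2 normalised counts for Cxcl13, 58.1 for Jchain and 55.6 for Ltb down to 8.0 for Cd79a, 7.28 for Mzb1, 7.0 for Cd79b and 0.925 for Ms4a1. In 66cl4 tumors the order per kilobase was Cxcl13 (179), Ltb (46.5), Cd79a (13.8), Cd79b (7.33), Jchain (4.87), Mzb1 (1.85) and Ms4a1 (0.223). Jchain was thus placed next to Cxcl13 in the 4T1 tumors and below both receptor chains in the 66cl4 tumors.

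The B-cell receptor chains and the B-cell surface gene varied more widely among 4T1 tumors than among 66cl4 tumors. In 4T1 untreated tumors 1, 2, 4 and 5, Cd79a had 1.18, 6.25, 20.04 and 24.9 normalised counts. In 4T1 anti-PD-1 tumors 1 to 5 it had 207, 2.68, 62.7, 142 and 216. In the chitin group the 5 values were 2.84, 40.7, 4.74, 1.77 and 58.6, and in the combination group 13.1, 4.32, 10.1, 10.3 and 11.7. Hence 4 of 5 anti-PD-1 tumors lay above every untreated tumor, tumor 2 lay among the lowest of the model, and chitin tumors 2 and 5 exceeded the untreated range. In 66cl4 tumors Cd79a lay between 7.25 and 44.0 (median 20.1), and the group means were 24.4 ± 12.4 (SD, n = 5) untreated, 28.7 ± 10.5 with anti-PD-1, 16.98 ± 8.47 with chitin and 20.6 ± 9.84 in the combination group. All 4 of these groups overlapped.

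Cd79b, the other receptor chain, followed the same tumors. Its normalised counts were 4.73, 6.25, 10.0 and 21.0 in 4T1 untreated tumors and 163, 2.68, 65.3, 81.0 and 161 in 4T1 anti-PD-1 tumors. They were 2.84, 26.8, 4.74, 2.96 and 34.9 with chitin, and 0, 4.32, 5.06, 13.1 and 16.3 with the combination. Anti-PD-1 tumor 2 again stood at the bottom of its group and below every untreated tumor, whereas the other four were above all of them. In the 66cl4 model, Cd79b had 7.51, 10.3, 3.52, 9.02 and 12.01 normalised counts in untreated tumors, 5.13, 9.47, 7.13, 16.3 and 2.39 with anti-PD-1, 11.8, 8.05, 18.9, 30.1 and 14.9 with chitin, and 13.4, 22.0, 8.27, 19.2 and 10.7 with both. Of the chitin tumors 3 of 5 lay above every untreated tumor, and the groups overlapped.

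Ms4a1 held few reads outside 4 tumors. It had 1.18, 0, 2.73 and 13.1 normalised counts in 4T1 untreated tumors, 118, 0, 55.0, 69.1 and 131 with anti-PD-1, 0, 11.1, 1.36, 0.591 and 12.5 with chitin, and 5.73, 5.77, 0, 3.75 and 10.5 with the combination. The 4 high anti-PD-1 tumors held 92, 43, 81 and 175 reads, and tumor 2 held none, which allows up to 3. In the 66cl4 model no tumor held more than 12 reads of Ms4a1, 4 tumors held none, and group means ran from 1.00 ± 0.566 untreated (SD, n = 5) to 4.32 ± 4.44 with anti-PD-1, so that differences among 66cl4 groups were not detectable at this depth.

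**Figure D1:**
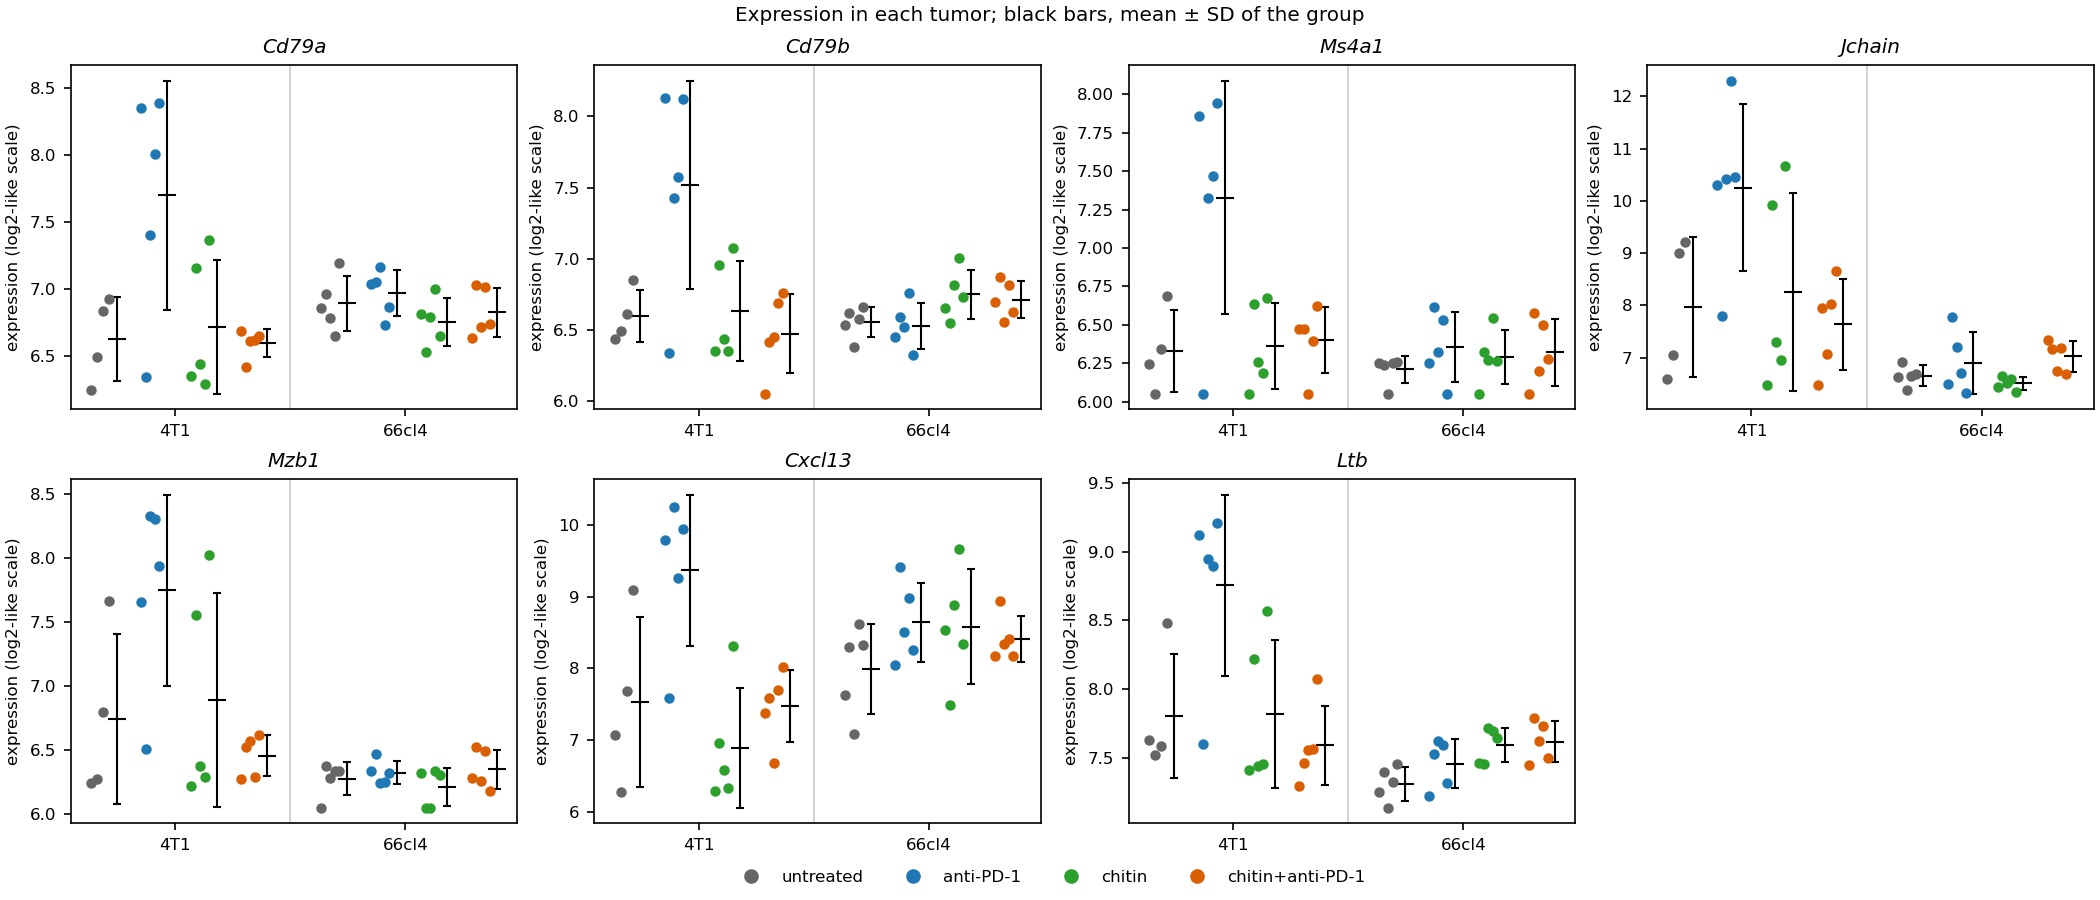
Variance-stabilized expression (log2-like scale, y axis) of the 7 genes in each tumor of the 8 groups (x axis), with 1 point per tumor and group mean ± SD. In 4T1 anti-PD-1 tumors 4 points stand high in each panel and tumor 2 lies at the bottom of its group, while 66cl4 points form narrower groups.

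Of the 7 genes, the antibody-secretion gene Jchain covered the widest range in 4T1 tumors. Jchain had 9.46, 32.8, 393 and 465 normalised counts in 4T1 untreated tumors and 1128, 109.7, 1248, 4894 and 1280.1 with anti-PD-1. It had 5.69, 839, 52.9, 26.6 and 1501 with chitin, and 5.73, 134, 34.1, 146 and 281 with the combination. Among 4T1 tumors the lowest and the highest value were thus 5.69 and 4894, and a single anti-PD-1 tumor, number 4, held the highest. The 4T1 untreated and anti-PD-1 groups overlapped only through anti-PD-1 tumor 2. In 66cl4 tumors Jchain ranged from 2.39 to 108 with a median of 12.2, and its group means were 13.0 ± 7.82 (SD, n = 5) untreated, 35.1 ± 44.0 with anti-PD-1, 7.10 ± 3.49 with chitin and 34.2 ± 19.1 in the combination group.

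Mzb1 had 1.18, 1.56, 18.2 and 91.7 normalised counts in 4T1 untreated tumors, 91.2, 6.69, 202, 198 and 130.4 with anti-PD-1, 0.948, 78.6, 3.39, 1.77 and 145 with chitin, and 1.64, 7.21, 8.85, 1.88 and 10.5 with the combination. In this gene 3 of 5 anti-PD-1 tumors lay above every untreated tumor, since untreated tumor 5 was slightly above anti-PD-1 tumor 1. In 66cl4 tumors Mzb1 did not exceed 7.33 normalised counts and 3 tumors held no read. The ratio of Jchain to Cd79a in mean normalised counts was 15.0 over the 4T1 tumors and 0.986 over the 66cl4 tumors, whereas the ratio of Cd79a to Cd79b was 1.34 and 1.89 and that of Jchain to Mzb1 was 12.6 and 9.32. Jchain was therefore low relative to Cd79a in 66cl4 tumors, while the ratio of Cd79a to Cd79b was closer between the models. Mzb1 passed the filter only through 4T1 tumors, so its low level in 66cl4 tumors adds nothing to this. The ratio of Jchain to Mzb1 rests there on a median of 2.25 normalised counts of Mzb1.

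Cxcl13, the B-cell chemokine, covered a wider range in 4T1 tumors, from 1.56 to 1086 normalised counts, than in 66cl4 tumors, from 35.2 to 685. In 4T1 tumors it had 34.3, 1.56, 94.7 and 421 normalised counts untreated, 756, 83.0, 1086, 485 and 856 with anti-PD-1, 1.90, 26.8, 8.81, 2.37 and 198 with chitin, and 59.7, 82.2, 12.6, 95.6 and 143 with the combination. Anti-PD-1 tumors other than tumor 2 all exceeded the highest untreated tumor, and 3 of 5 chitin tumors stood under 10 normalised counts. In 66cl4 tumors it had 87.6, 195, 35.2, 272 and 200.2 untreated, 148, 554, 242, 381 and 187 with anti-PD-1, 248, 70.9, 349.6, 685 and 205 with chitin, and 171, 368, 206, 219.9 and 171 with both. These 4 groups overlapped widely. No 66cl4 tumor was as low as the 4T1 chitin tumors 1, 2, 3 and 4, the 4T1 untreated tumors 1 and 2 or the 4T1 combination tumor 3.

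Ltb, the lymphotoxin gene, was well above 0 reads in every tumor. It had 87.5, 75.1, 82.9 and 237 normalised counts in 4T1 untreated tumors, 433, 84.3, 369.8, 353 and 468 with anti-PD-1, 63.5, 180.4, 66.4, 68.0 and 259 with chitin, and 52.3, 69.2, 79.6, 79.7 and 153 with the combination. The 4 high anti-PD-1 tumors lay above every other 4T1 tumor, and tumor 2 lay within the untreated range. In 66cl4 tumors it had 48.8, 61.9, 39.6, 55.4 and 68.1 untreated, 46.2, 75.8, 86.7, 83.8 and 54.9 with anti-PD-1, 68.5, 68.5, 98.8, 95.7 and 89.6 with chitin, and 67.2, 109, 86.8, 101 and 72.4 with both. Ltb was the member whose 66cl4 chitin tumors all lay above all untreated ones, although the gap was narrow, and 0.978% of all genes (140 of 14318) showed the same order.

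In the order of the 8 groups by mean value, 4T1 anti-PD-1 stood first for all 7 genes, as it did for 16.1% of all genes. Of the 49 neighbouring pairs in these orders, 5 differed by more than the larger SD of the pair, and each of these was the step from 4T1 anti-PD-1 to the next group, for Cd79b, Ms4a1, Jchain, Mzb1 and Ltb. For Cd79a and Cxcl13 that step was 0.73 for each on the log2-like scale against SDs of 0.86 and 1.05. Neighbours further down did not differ beyond their spread for any member. In the untreated, chitin and chitin + anti-PD-1 groups of 4T1 tumors, tumor 5 was the highest for 7, 7 and 6 of the 7 genes, and chitin tumors 2 and 5 were the highest pair for 7 genes.

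The question of whether anti-PD-1 alone changed these genes was addressed by the comparison with untreated tumors. In the 4T1 model the group means of normalised counts were 17.6-fold higher for Ms4a1, 9.62-fold for Cd79a, 9.02-fold for Cd79b, 7.70-fold for Jchain, 4.74-fold for Cxcl13, 4.46-fold for Mzb1 and 2.83-fold for Ltb. None of these differences passed the adjusted threshold with limma, as for 0% of all genes, of which 1273 had an unadjusted p under 0.05. On the log2-like scale Cd79a was higher by 1.07 ± 0.33 (SE), Cd79b by 0.92 ± 0.28, Ms4a1 by 1.00 ± 0.28, Jchain by 2.29 ± 0.91, Mzb1 by 1.00 ± 0.40, Cxcl13 by 1.83 ± 0.56 and Ltb by 0.95 ± 0.31. The adjusted p in limma was 0.517 for Cd79a, Cd79b, Ms4a1, Cxcl13 and Ltb, 0.526 for Jchain and 0.527 for Mzb1. At least 4 of the 5 tumors exceeded all untreated tumors for 6 of the 7 genes, a pattern that 8.32% of all genes showed. In the same comparison limma-voom on the recovered reads likewise called 0 genes, as it did in every other comparison within a model.

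Without anti-PD-1 tumor 2, 80 genes passed in this comparison, and 5 of them were members. Leaving out the lowest tumor of the higher group favoured the members in advance, so these calls are descriptions. Cd79a then rose by 1.41 (limma adjusted p = 0.0218), Cd79b by 1.22 (adjusted p = 0.0172), Ms4a1 by 1.32 (adjusted p = 0.00334), Cxcl13 by 2.28 (adjusted p = 0.0496) and Ltb by 1.24 (adjusted p = 0.0467), while Jchain and Mzb1 did not pass. Estimated tumor weights gave tumor 2 the lowest weight, 0.308, against 3.18 and 4.22 for tumors 1 and 5, and under these weights all 7 members passed, with 960 genes in all. A low weight for tumor 2 favoured the members as leaving it out did, so the weighted calls are descriptions too.

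In the 66cl4 model anti-PD-1 was accompanied by differences of 0.08 for Cd79a, -0.03 for Cd79b, 0.15 for Ms4a1, 0.25 for Jchain, 0.05 for Mzb1, 0.65 for Cxcl13 and 0.14 for Ltb. The limma adjusted p lay between 0.911 and 0.983, and 767 of all genes had an unadjusted p under 0.05 with 0% called. The difference between the models in the anti-PD-1 response, tested as an interaction, was -0.997 for Cd79a (95% interval -1.70 to -0.29), -0.95 for Cd79b (-1.54 to -0.35), -0.85 for Ms4a1 (-1.46 to -0.24), -2.05 for Jchain (-3.93 to -0.16), -0.96 for Mzb1 (-1.79 to -0.12), -1.18 for Cxcl13 (-2.55 to 0.18) and -0.81 for Ltb (-1.46 to -0.15). These intervals are not adjusted, and the limma adjusted p ranged from 0.552 to 0.715, with 0% of genes called and 1041 at an unadjusted p under 0.05. Without 4T1 anti-PD-1 tumor 2, Cd79a (-1.34), Cd79b (-1.24), Ms4a1 (-1.17) and Ltb (-1.10) passed among 86 genes. The values of Ms4a1 and Mzb1 are descriptions, because these genes held at most 12 and 9 reads in 66cl4 tumors. A response there could hardly be seen, and the 66cl4 tumors alone would not have passed them through the filter.

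Addition of chitin to anti-PD-1 was examined by comparing the combination with anti-PD-1 alone, a comparison that was added after the values were seen. In the 4T1 model no combination tumor reached the anti-PD-1 median for any of the 7 members, a pattern that 12.8% of all genes showed. The ratio of mean normalised counts was 0.0478 for Mzb1, 0.0689 for Ms4a1, 0.0694 for Jchain, 0.0786 for Cd79a, 0.0820 for Cd79b, 0.120 for Cxcl13 and 0.254 for Ltb. The difference was -1.10 ± 0.31 (SE) for Cd79a, -1.05 ± 0.26 for Cd79b, -0.93 ± 0.26 for Ms4a1, -2.62 ± 0.85 for Jchain, -1.29 ± 0.38 for Mzb1, -1.90 ± 0.53 for Cxcl13 and -1.16 ± 0.30 for Ltb. The value for Jchain was the lowest difference of all 14318 genes in this comparison. The limma adjusted p ranged from 0.261 for Cd79b to 0.386 for Jchain, so that none passed, as for 0% of all genes, of which 1307 had an unadjusted p under 0.05. Without anti-PD-1 tumor 2, 202 genes passed and 6 members were among them, namely Cd79a (-1.44, adjusted p = 0.0119), Cd79b (-1.34, adjusted p = 0.00843), Ms4a1 (-1.24, adjusted p = 0.00523), Mzb1 (-1.60, adjusted p = 0.0325), Cxcl13 (-2.34, adjusted p = 0.0249) and Ltb (-1.45, adjusted p = 0.0125). This comparison shares the anti-PD-1 tumors with the one against untreated tumors, and leaving out tumor 2 favoured the members in the same way.

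**Figure D2:**
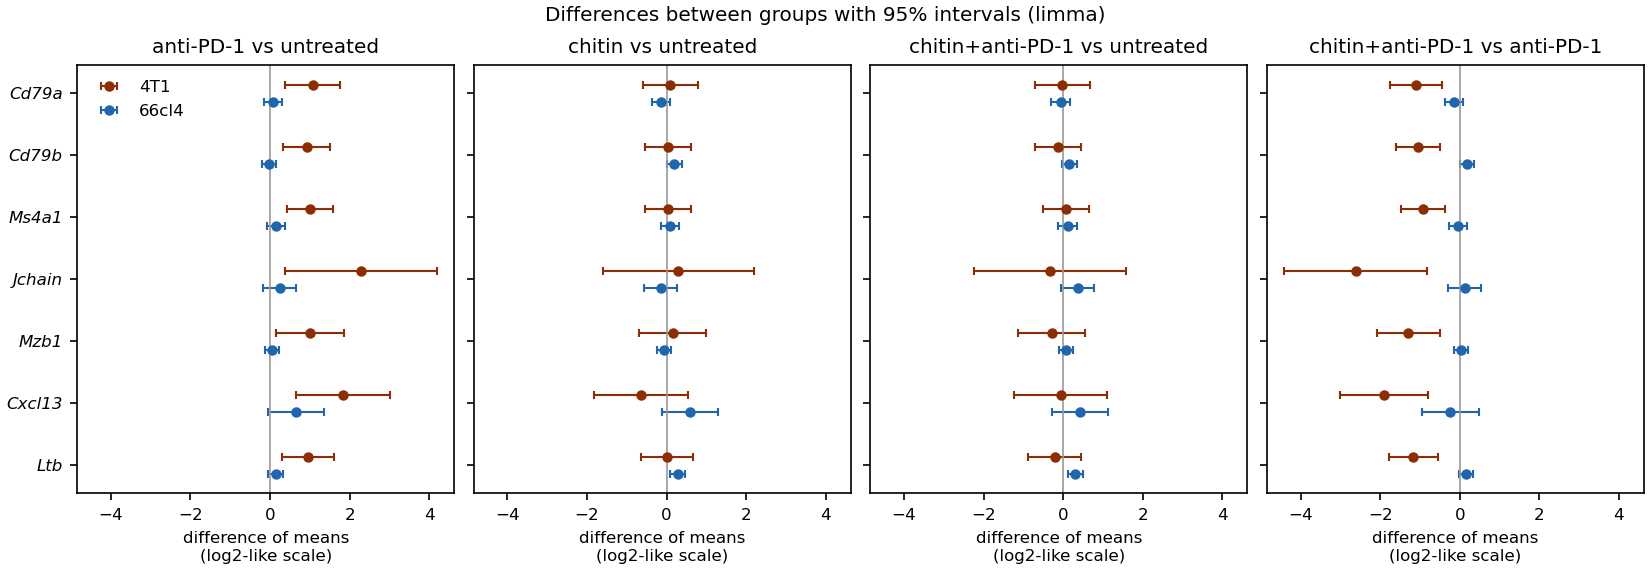
Differences between groups on the log2-like scale (x axis, with 95% confidence interval from limma) for the 7 genes in both models and 4 comparisons. In the 4T1 model the anti-PD-1 values lie from 0.92 to 2.29 with wide intervals and the chitin + anti-PD-1 against anti-PD-1 values from -2.62 to -0.93, while 66cl4 values lie nearer to 0.

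Against untreated tumors, the 4T1 chitin group differed by 0.09 for Cd79a, 0.04 for Cd79b, 0.03 for Ms4a1, 0.30 for Jchain, 0.15 for Mzb1, -0.64 for Cxcl13 and 0.01 for Ltb. The chitin + anti-PD-1 group differed by -0.03, -0.12, 0.07, -0.33, -0.29, -0.06 and -0.21 in the same order. Every limma adjusted p was 1 in both comparisons, where 0% of genes were called and 397 and 367 had an unadjusted p under 0.05. When both chitin-containing groups were set against the other two, the 4T1 difference was -0.50 for Cd79a, -0.50 for Cd79b, -0.45 for Ms4a1, -1.16 for Jchain, -0.57 for Mzb1, -1.27 for Cxcl13 and -0.57 for Ltb. None passed (limma adjusted p of 0.580 to 0.723, 0% of genes called, 1042 with an unadjusted p under 0.05), and the high anti-PD-1 tumors are part of the reference here.

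In the 66cl4 model, chitin was accompanied by higher Ltb, with a difference of 0.28 (95% interval 0.10 to 0.46, limma adjusted p = 0.232) and 1.54-fold in mean normalised counts. Cd79b was 1.98-fold higher in mean normalised counts, with a difference of 0.20 (adjusted p = 0.405). The others differed by -0.14 for Cd79a, 0.08 for Ms4a1, -0.15 for Jchain, -0.06 for Mzb1 and 0.59 for Cxcl13. None passed, and 0% of genes did, although 1639 had an unadjusted p under 0.05. Depth differed between these groups, with a median of 6064018 reads in untreated and 10250227 in chitin tumors, and at equal depth the Ltb difference was 0.23 (adjusted p = 0.360).

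With chitin + anti-PD-1 against untreated 66cl4 tumors, the differences were -0.06 for Cd79a, 0.16 for Cd79b, 0.11 for Ms4a1, 0.37 for Jchain, 0.07 for Mzb1, 0.42 for Cxcl13 and 0.30 for Ltb. The smallest limma adjusted p of a member was 0.298 for Ltb, whose difference at equal depth was 0.30. Against anti-PD-1 alone the combination differed by -0.14 for Cd79a, 0.18 for Cd79b, -0.03 for Ms4a1, 0.12 for Jchain, 0.03 for Mzb1, -0.23 for Cxcl13 and 0.16 for Ltb. Both chitin-containing 66cl4 groups against the others gave 0.22 for Ltb (adjusted p = 0.128) and 0.19 for Cd79b (adjusted p = 0.170), the other members lying from -0.14 to 0.18. In these comparisons 0% of genes were called, and 1516, 1188 and 2238 had an unadjusted p under 0.05.

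Whether chitin-containing treatment acted differently in the models was tested as an interaction, in which 14 genes (0.0978%) passed, none of them a member. The reference in each model was its untreated and anti-PD-1 groups, so the high 4T1 anti-PD-1 tumors are part of it. Against untreated tumors alone, the 4T1 chitin differences ran from 0.01 for Ltb to 0.30 for Jchain, with -0.64 for Cxcl13. The values below are therefore not a response to chitin alone. The 66cl4 response minus the 4T1 response was 0.80 for Ltb (95% interval 0.34 to 1.25, limma adjusted p = 0.0930), 0.69 for Cd79b (0.28 to 1.11, adjusted p = 0.103), 1.45 for Cxcl13 (0.50 to 2.40, adjusted p = 0.147), 0.47 for Ms4a1 (adjusted p = 0.316), 0.55 for Mzb1 (adjusted p = 0.411), 1.15 for Jchain (adjusted p = 0.463) and 0.36 for Cd79a (adjusted p = 0.561). Without 4T1 anti-PD-1 tumor 2, 677 genes passed and 4 members with them, namely Cd79b (0.84), Ms4a1 (0.63), Cxcl13 (1.67) and Ltb (0.94). Leaving out this tumor raises the 4T1 reference. The few reads of Ms4a1 and Mzb1 in 66cl4 tumors limit this comparison too, and their values are descriptions. Ltb also passed without 4T1 chitin tumor 5 (0.89) and without 4T1 chitin + anti-PD-1 tumor 5 (0.86). These tumors held the highest Ltb of their groups, 259 and 153 normalised counts. Leaving either out enlarged the Ltb difference in advance, so these calls are descriptions.

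Over all treatments, the 66cl4 tumors were lower than the 4T1 tumors for Jchain by -1.76 ± 0.32 (SE, limma adjusted p = 9.2e-06) and for Ltb by -0.50 ± 0.11 (adjusted p = 0.000172). The Ltb gap was uneven across treatments. Mean Ltb on the log2-like scale was 8.76 in 4T1 and 7.46 in 66cl4 tumors with anti-PD-1, and 7.81 and 7.31 untreated. With chitin it was 7.82 and 7.60, and in the combination group 7.59 and 7.62, without a lower value in 66cl4 tumors. For Mzb1 and Ms4a1 the differences were -0.67 ± 0.14 and -0.31 ± 0.10, and they are given as descriptions because the filter favoured these genes where they were high in 4T1 tumors. Cxcl13 was higher in 66cl4 tumors by 0.59 ± 0.23 (adjusted p = 0.0218), but with anti-PD-1 its mean was higher in 4T1 tumors, at 9.36 against 8.64. Cd79a differed by -0.05 (95% interval -0.29 to 0.20) and Cd79b by -0.17 (-0.37 to 0.04), and neither passed. This made 5 of 7 members called where 78.8% of all genes were called, so that the count itself sets the members apart in no way, and Mzb1 and Ms4a1 are 2 of the 5. The call of Ms4a1 was lost with limma-voom (-1.42). The call of Cxcl13 was lost without 4T1 untreated tumor 2 (0.49, adjusted p = 0.0525), and Cd79b passed without 4T1 anti-PD-1 tumor 2 (-0.24, adjusted p = 0.00349).

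The members varied together among 4T1 tumors. After subtraction of group means, over 19 tumors, Pearson's r was 0.92 for Cd79a with Cd79b, 0.91 for Cd79a with Ms4a1, 0.91 for Jchain with Mzb1, 0.90 for Cd79b with Ltb and 0.87 for Cxcl13 with Ltb, and the lowest of all pairs was 0.69 for Ms4a1 with Jchain. These points share library, depth and tissue composition, and the values are descriptions. Over 20 66cl4 tumors the pairs were looser. There, r was 0.81 for Cd79b with Cxcl13, 0.77 for Cd79b with Ms4a1, 0.76 for Cd79b with Ltb and 0.71 for Cxcl13 with Ltb, but 0.47 for Cd79a with Cd79b and 0.30 for Jchain with Mzb1. The low counts of Ms4a1 and Mzb1 in 66cl4 tumors limit what these values show.

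**Figure D3:**
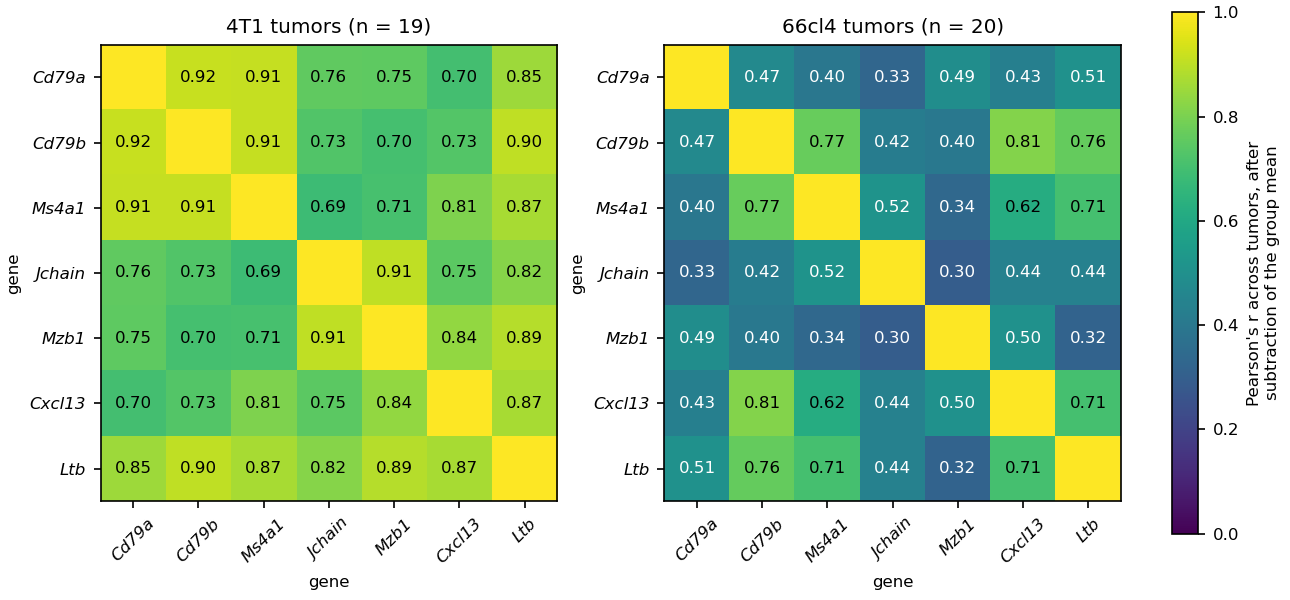
Pearson's r between members after subtraction of group means, in 19 4T1 tumors and 20 66cl4 tumors, as a colour scale with the value printed in each cell. In 4T1 tumors no pair lies below 0.69, and in 66cl4 tumors pairs with Jchain or Mzb1 are among the lowest.

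The spread within groups was larger in 4T1 than in 66cl4 tumors for each member. The ratio of the SDs on the log2-like scale was 4.90 for Mzb1, 4.21 for Jchain, 3.46 for Ltb, 3.02 for Cd79b, 2.82 for Cd79a, 2.37 for Ms4a1 and 1.56 for Cxcl13, against a median of 1.67 over all genes. Mzb1 and Ms4a1 held at most 9 and 12 reads in a 66cl4 tumor. Values so near 0 reads leave little room for spread, so the ratios of these genes are descriptions. Jchain had a larger SD than 99.9% of genes in 4T1 tumors and 97.4% in 66cl4 tumors, and Cxcl13 than 99.3% and 99.4%. Jchain and Cxcl13 therefore had a wide spread in both models, and the ratio of Cxcl13 lay under the median of all genes.

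The genes most like each member, by Pearson's r over all 39 tumors after subtraction of group means, were taken as the nearest 3 in the table. For Cd79a they were Cd79b (0.87), Ms4a1 (0.84) and Pou2af1 (0.82), a B-cell transcriptional coactivator. For Cd79b they were Ltb (0.89), Ms4a1 (0.89) and Cd79a (0.87), and for Ms4a1 Cd79b (0.89), the transcription factor gene Spib (0.86) and B3gnt5 (0.85). Thus members were among the nearest genes of each receptor and surface gene. For Jchain they were Pou2af1 (0.88), Mzb1 (0.88) and Lax1 (0.85), and for Mzb1 Lax1 (0.88), Jchain (0.88) and Lhpp (0.86). Cxcl13 lay nearest to Gimap3 (0.81), Ltb (0.80) and BC064078 (0.80), and Ltb to Gimap3 (0.91), Ptprcap (0.89) and Cd79b (0.89), where Gimap3 and Ptprcap are lymphocyte genes. The points share library, depth and tissue composition.

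Other B-lineage genes were taken from lists fixed by name. Of 19 B-cell identity genes, 10 were measured and the rest were not analysed here. None passed within a model, where 0% of genes did. In 4T1 anti-PD-1 against untreated tumors all 10 lay above 0 with a median difference of 0.44, and 6 had an unadjusted p under 0.05, while over all genes the median was near 0 and 49.8% lay above it. The smallest p belonged to Pax5, the transcription factor that maintains B-cell identity, at 0.76 (unadjusted p = 0.00108), with 1.53 ± 1.53 normalised counts (SD, n = 4) untreated, 37.3 ± 33.4 (n = 5) with anti-PD-1, 5.62 ± 7.47 with chitin and 8.40 ± 4.53 in the combination group. Cd22, an inhibitory receptor of B cells, had 66.4 ± 39.5, 173 ± 72.3, 44.8 ± 28.3 and 39.9 ± 18.4 in the same order, and Pou2af1 had 15.8 ± 19.6, 89.0 ± 58.0, 21.1 ± 26.1 and 12.6 ± 9.91. In the comparison of chitin + anti-PD-1 with anti-PD-1 alone, 0 of 10 lay above 0 and the median was -0.55, with Cd72, a B-cell inhibitory receptor, at -0.93. These lists hold no member and were chosen with results of these data known. Summed, the 10 genes had a mean of 1034 normalised counts in 66cl4 untreated tumors, against 33.9 for Cd79a, Cd79b and Ms4a1 together. Which cells carried the 10 genes was not tested, and their sum is not read as a measure of B cells.

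Of the 15 genes of B-cell receptor signaling, all measured, 13 lay above 0 in 4T1 anti-PD-1 against untreated tumors with a median of 0.34, and 1 lay above 0 in the combination against anti-PD-1 with a median of -0.43. The adaptor gene Blnk was at 0.56 and -0.82. In 66cl4 chitin against untreated tumors 14 of 15 lay above 0 with a median of 0.18. The mean macrophage marker sum was also higher there, at 35126 against 29198. In 4T1 anti-PD-1 tumors the 15 genes summed to 9248 to 13286 normalised counts, against 5.35 to 508 for Cd79a, Cd79b and Ms4a1 together. Which cells carried the signaling genes was not tested, and they are not read as a measure of B cells. Of 21 plasma-cell genes 11 were measured, with 9 above 0 and a median of 0.24 for 4T1 anti-PD-1. The immunoglobulin constant genes were not analysed here. The summed counts of these 11 genes did not follow the members, with a median of 8698 in 4T1 anti-PD-1 and 9761 in untreated tumors. After subtraction of group means over 19 4T1 tumors, r of this sum with the members ran from -0.43 for Ltb to -0.23 for Jchain. Of the 4 measured chemokine and receptor genes, all lay above 0 with a median of 0.54, and Ccr7, the receptor that guides lymphocytes to lymph nodes, stood at 0.80 (unadjusted p = 0.00403). Of 14 measured lymphotoxin and TNF family genes 11 lay above 0 with a median of 0.09. None of the genes in these lists passed in the comparisons within a model.

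Between the models, list genes did not all go the way of the members. Of the 10 B-cell identity genes 3 were higher and 3 lower in 66cl4 tumors with limma, and among the higher were Bank1 (0.76), Ebf1 (0.51) and Cd180 (0.43). Of the 11 plasma-cell genes 1 was higher and 5 lower, with Sdc1 at -1.83, Prdm1, the transcription factor of plasma cells, at -0.94 and Fkbp11 at -0.88. Of the 15 receptor signaling genes 8 were higher and 4 lower, with Plcg2 at -1.58, Cd81 at -0.84 and Blnk at 0.73. Of the 4 chemokine and receptor genes 1 was higher and 2 lower, with Cxcl12, a chemokine of stromal cells, at 2.75, its receptor gene Cxcr4 at -0.47 and the Cxcl13 receptor gene Cxcr5 at -0.11. Of the 14 lymphotoxin and TNF family genes 5 were higher and 7 lower. Nfkb2, a subunit of NF-kappaB, was higher by 0.98 and the receptor gene Tnfrsf11a by 0.69, while Tnfsf13b, which encodes the B-cell survival factor BAFF, stood at -1.34. The background of 78.8% called applies to these counts as well, and the tumor cells themselves differ between the models.

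**Figure D4:**
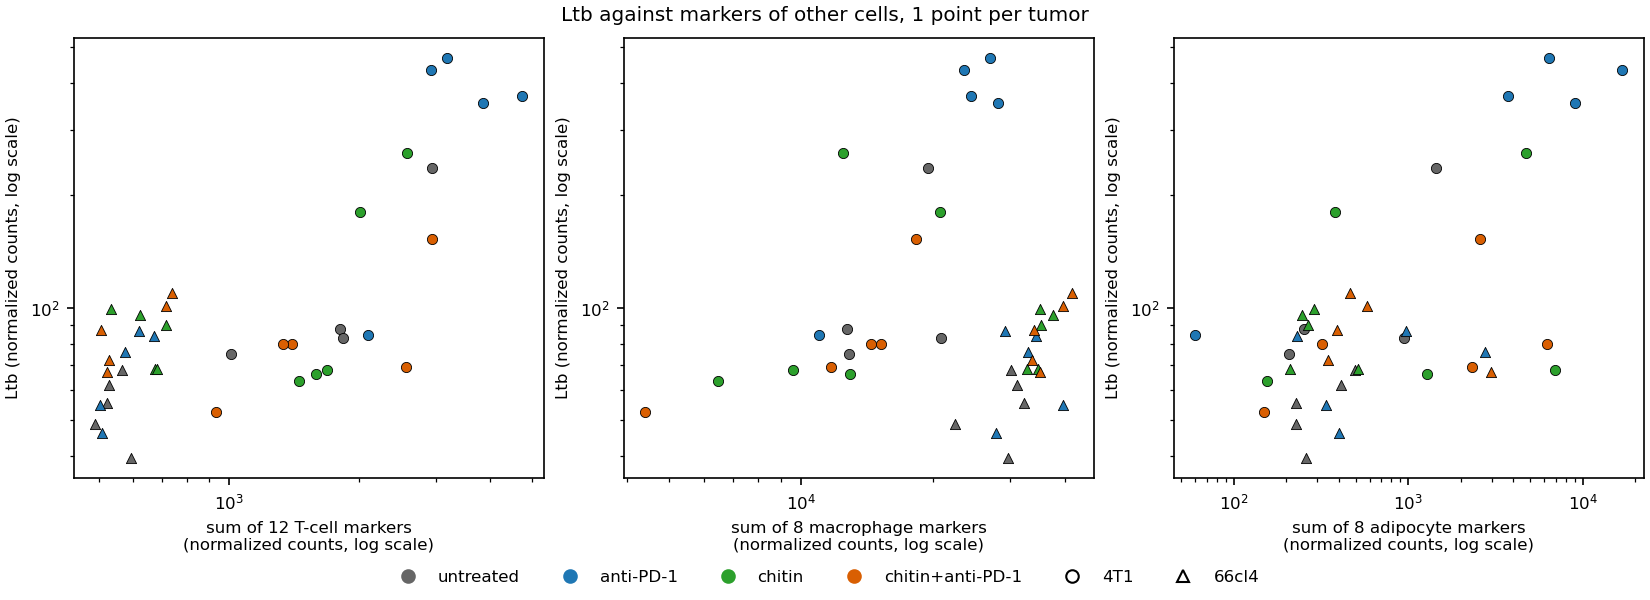
Ltb normalised counts (y axis, log scale) against the summed normalised counts of 12 T-cell, 8 macrophage and 8 adipocyte marker genes (x axes, log scale), with 1 point per tumor, colours for treatments, circles for 4T1 and triangles for 66cl4. The 4T1 anti-PD-1 tumor 2 lies at the lowest adipocyte sum of its group, 60.2, while the tumors of that group with high Ltb lie at 3730 or more.

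Markers of other cell types moved with the members. The summed normalised counts of 12 T-cell markers, all measured, ran from 1010 to 2951 in 4T1 untreated tumors, 2098 to 4762 with anti-PD-1, from 1454 to 2580 with chitin and 931 to 2944 with the combination, with tumor 2 the lowest of the anti-PD-1 group. All 12 lay above 0 in 4T1 anti-PD-1 against untreated tumors with a median of 0.65, and none above 0 in the combination against anti-PD-1 with a median of -0.87. The sum in 66cl4 tumors lay between 491 and 740, below every 4T1 tumor. Ltb is also expressed by T cells, and all 12 markers were above 0 in every tumor. Between the models 10 of the 12 were lower in 66cl4 tumors and none higher. The 8 macrophage markers summed to 12753 to 20867 in 4T1 untreated tumors, to 10983 in anti-PD-1 tumor 2 and up to 28167 in that group, to 6466 to 20775 with chitin and to 4409 to 18341 in the combination group, and all 8 were above 0 in every tumor. They lay between 22513 and 41676 in 66cl4 tumors, where 7 of the 8 were higher than in 4T1 tumors. The median difference of the macrophage markers was 0.40 in 4T1 anti-PD-1 against untreated tumors and -0.74 in the combination against anti-PD-1.

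Signs of surrounding gland moved with them too. The 8 adipocyte markers, a list added after the values were seen, summed to 208 to 1446 in 4T1 untreated tumors and to 60.2 to 16833 in 4T1 anti-PD-1 tumors, where tumor 2 had the lowest sum. The 5 measured markers of lactating mammary epithelium summed to 4.73 to 254 in 4T1 untreated tumors and to 5.35 to 3181 with anti-PD-1, again with tumor 2 the lowest, and Wap and Lalba were not analysed here. The median difference in 4T1 anti-PD-1 against untreated tumors was 1.74 for adipocyte markers, 1.95 for lactating markers and 1.00 for the 7 members, and it was 0.15 for 7 markers of plasmacytoid dendritic cells, 0.16 for 7 muscle markers and -0.06 for 6 proliferation genes. In the combination against anti-PD-1 it was -0.96 for adipocyte markers, -0.84 for lactating markers and -1.16 for the members. Chitin-containing 4T1 groups also held tumors rich in adipocyte markers, with sums up to 6922 and 6224. After subtraction of group means over 19 4T1 tumors, r of the members ran from 0.33 for Cd79a to 0.74 for Cxcl13 with the T-cell sum, from 0.50 to 0.75 with the macrophage sum, from 0.51 to 0.73 with the adipocyte sum and from 0.47 to 0.69 with the lactating sum. The part of these cell types in the differences of the members was not tested.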

How the data were processed

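Total RNA of flash-frozen primary tumors was sequenced from stranded libraries as paired reads. The authors aligned reads to mm10 with HISAT2, counted them per gene by strand, kept genes with more than 10 counts in at least 10% of tumors and deposited variance-stabilized values from DESeq2, on a log2-like scale. Tool versions and the gene annotation are not given in the sources used here. The submitters' labels describe 40 tumors, of which the table holds 39. Compression of low counts by this transformation shrinks differences of genes with few reads.

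Groups were taken from the labels. The test was limma (version 3.58.1, R version 4.3.3, with trend), within each model over its 4 groups and between the models over 8 groups, with Benjamini-Hochberg adjustment over 14318 genes and a threshold of 0.05, and the fit was tested on simulated data. Inversion of the transformation gave reads whole within 0.001. Gene names missing from the table and promoter sequences came from RefSeq. Python 3.11.15, numpy 2.4.6, pandas 2.3.3, scipy 1.17.1 and matplotlib 3.10.9 were used. Named genes were the members, the nearest 3 genes to each by correlation, and from each list at most 3 genes past the threshold with the largest absolute difference, or, where none passed, the gene with the smallest p. Cd22 and Pou2af1 were named after their values were seen. The members and lists were chosen with earlier results of these data known. The labels do not say that tumors of a group were raised in separate experiments, and p-values measure the spread between these tumors. Among 76 pairs of replicate tumors, none agreed within sampling noise. The alternatives were a filter on low values, quantile normalization, limma-voom on recovered reads, equal read depth, tumor weights, a replicate block, 1 fit of both models and leaving out each tumor.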

Additional observations from a re-analysis of the deposited data

Results flagged for a closer look

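Within groups of 4 or 5 tumors, 56 sets of member values were examined for a tumor far from the others by Dixon's criterion, which chance meets in about 1 in 20 sets, and 5 met it. On the log2-like scale, Ltb in 4T1 anti-PD-1 tumor 2 was 7.60 while the others of the group lay between 8.90 and 9.21, and Ltb in 4T1 untreated tumor 5 was 8.48 while the others lay between 7.52 and 7.63. Cd79a in 4T1 chitin + anti-PD-1 tumor 2 was 6.42 against 6.61 to 6.69. Ms4a1 in 66cl4 untreated tumor 3 was 6.05, which is 0 reads, against 6.24 to 6.26, which is 1 read in each of the others. Mzb1 in 66cl4 untreated tumor 1 was 6.05, again 0 reads, against 6.29 to 6.38.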

How the results depend on the processing

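Of the 564 differences of members under settings other than leaving out a tumor, 502 kept their direction and their side of the threshold, 42 passed it newly, 1 no longer passed and 19 changed sign. Of 2184 values with 1 tumor left out, these counts were 2107, 22, 1 and 54. The cause of the changes of sign was not tested. With quantile normalization they were Ms4a1 in 4T1 chitin against untreated (-0.043), Mzb1 in 66cl4 chitin + anti-PD-1 against anti-PD-1 (-0.0034) and Cd79a between the models (0.075). With limma-voom they were, in 4T1 chitin, Cd79a (-0.18), Cd79b (-0.30), Ms4a1 (-0.30), Jchain (-0.24), Mzb1 (-0.19) and Ltb (-0.11), in 4T1 chitin + anti-PD-1, Cd79a (0.15) and Cxcl13 (0.37), and Mzb1 in 66cl4 chitin + anti-PD-1 against anti-PD-1 (-0.26) and Cd79a between the models (0.39). Ms4a1 lost its call between the models with limma-voom (-1.42). At equal depth Mzb1 in 66cl4 anti-PD-1 was -0.041. With tumor weights they were Cd79b (-0.030) and Ltb (-0.091) in 4T1 chitin and Cd79a (0.0060) and Ms4a1 (-0.025) in 4T1 chitin + anti-PD-1, where Cd79a was 0.021 with the replicate block.

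Leaving out 1 tumor at a time, the 4T1 chitin difference ranged from -0.067 to 0.20 for Cd79a, -0.073 to 0.12 for Cd79b, -0.064 to 0.15 for Ms4a1, -0.30 to 0.75 for Jchain, -0.13 to 0.45 for Mzb1 and -0.17 to 0.24 for Ltb. The 4T1 chitin + anti-PD-1 difference ranged from -0.15 to 0.073 for Cd79a, -0.022 to 0.19 for Ms4a1, -0.78 to 0.086 for Jchain, -0.45 to 0.020 for Mzb1, -0.48 to 0.46 for Cxcl13 and -0.33 to 0.012 for Ltb. In 66cl4 tumors Cd79a ranged from -0.13 to 0.012 with chitin + anti-PD-1, Cd79b from -0.082 to 0.026 and Mzb1 from -0.010 to 0.072 with anti-PD-1. The 66cl4 combination against anti-PD-1 ranged from -0.023 to 0.34 for Jchain, -0.020 to 0.067 for Mzb1 and -0.11 to 0.033 for Ms4a1, and the 66cl4 chitin-containing groups against the others from -0.087 to 0.10 for Jchain, -0.015 to 0.057 for Ms4a1 and -0.048 to 0.0014 for Mzb1.

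Counts of called genes changed as follows. Leaving out the lowest 25% of genes gave 6 genes for 66cl4 chitin-containing groups and 8 for the difference in chitin-containing response. It gave 3 members between the models, because members with low values were themselves among the genes left out. Quantile normalization gave 2 genes for 4T1 chitin + anti-PD-1 against anti-PD-1 and 39 for the chitin-containing response. Tumor weights gave 960 genes (7 members) for 4T1 anti-PD-1, 297 (5) for 4T1 chitin-containing groups, 2127 (7) for 4T1 chitin + anti-PD-1 against anti-PD-1, 331 (6) for the anti-PD-1 response and 1004 (6) for the chitin-containing response, with 185 and 2 genes in 66cl4 chitin-containing groups and 66cl4 chitin + anti-PD-1 against anti-PD-1. The weight of 4T1 anti-PD-1 tumor 2 was low, 0.308, which favoured the members wherever that group was used. A fit of both models together gave 60 genes (3 members: Cd79a, Cd79b and Ms4a1) for 4T1 anti-PD-1, 294 (7) for 4T1 chitin + anti-PD-1 against anti-PD-1, 58 for 4T1 chitin-containing groups, 3 for 4T1 chitin + anti-PD-1, and 1 each for 66cl4 chitin-containing groups and 66cl4 chitin + anti-PD-1 against anti-PD-1. That fit left the differences of the members unchanged, with 1.07 for Cd79a in 4T1 anti-PD-1. It pooled the spread of both models, which was smaller in 66cl4 tumors for each member. The spread of the members among 4T1 tumors is therefore understated there, and the member calls are descriptions.

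No pairing by tumor number was assumed, and the labels give none. Correlations of same-numbered tumors ran from -0.39 to 0.45 over 27 pairs in 4T1 and from -0.30 to 0.54 over 30 pairs in 66cl4. The medians were -0.017 and 0.026, with 11 over 0.1 in each. In 66cl4, untreated and anti-PD-1 tumors 1 to 4 correlated at 0.28 to 0.54, and tumor 5 at -0.09. Differently numbered pairs were not set beside these, so a factor shared by number was not tested. With the number as a replicate block, 1 gene passed in 4T1 chitin + anti-PD-1, 1 in 4T1 chitin + anti-PD-1 against anti-PD-1, 2 in 66cl4 chitin, 7 in 66cl4 chitin + anti-PD-1, 16 in 66cl4 chitin-containing groups and 104 in the chitin-containing response.

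Leaving out 1 tumor, genes called ranged from 0 to 80 for 4T1 anti-PD-1 (members 0 to 5), 0 to 202 for 4T1 chitin + anti-PD-1 against anti-PD-1 (members 0 to 6), 0 to 1 for 4T1 chitin-containing groups, 0 to 86 for the anti-PD-1 response (members 0 to 4) and 0 to 677 for the chitin-containing response (members 0 to 4), the upper values without 4T1 anti-PD-1 tumor 2. The chitin-containing response gave 183 genes without 4T1 chitin tumor 2 and 282 without 4T1 chitin + anti-PD-1 tumor 5. In 66cl4 tumors they ranged from 0 to 25 for chitin, 0 to 3 for chitin + anti-PD-1, 0 to 269 for chitin-containing groups and 0 to 3 for chitin + anti-PD-1 against anti-PD-1, the values of 25 and 269 without untreated tumor 3. Depth limits Ms4a1 and Mzb1 in 66cl4 tumors, which held at most 12 and 9 reads.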

Other observations

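In 66cl4 tumors, after subtraction of group means over 20 tumors, Jchain varied with the summed adipocyte markers (r = 0.81) and the lactating epithelium markers (r = 0.72). Cxcl13, Ltb and Cd79b varied with the summed markers of plasmacytoid dendritic cells (r = 0.80, 0.79 and 0.71), and Cxcl13 and Cd79b varied inversely with proliferation markers (r = -0.67 and -0.66). These values are descriptions, and the points share library, depth and tissue composition.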
